A study of Mus musculus with 8 samples.

Results

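The 39 genes described here serve protein folding in the endoplasmic reticulum (ER), the unfolded protein response (UPR) and the route by which folded proteins leave the ER. They were taken by gene symbol. Each symbol matched a single row of the count table, which lists 50600 genes, and all 39 were among the 14497 genes that reached 10 counts in 2 or more libraries of the 8. They comprise 10 ER chaperones and co-chaperones, 2 lectin chaperones, 4 disulfide isomerases, 5 collagen-folding proteins, 5 sensors and transcription factors of the UPR and its relatives, 2 genes of ER-associated degradation, 4 of translocation into the ER, 4 of export in COPII vesicles and 3 KDEL receptors.

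Poly(A) RNA was sequenced from mouse malignant peripheral nerve sheath tumor (MPNST) cells of a line with intact Trp53, NF1-MET, and of a line made from it, NF1-MET;sgP53, labelled as a Trp53 knockout. The NF1-MET model has a floxed and a knockout allele of Nf1 (Nf1 fl/ko), a MET transgene behind a stop cassette (lox-stop-loxMET tg/+) and an inducible Cre driven by the Plp promoter (Plp-creERT tg/+), and its line had also lost Cdkn2a, which both lines therefore share. NF1-MET;sgP53 received a CRISPR guide against Trp53 in a lentiviral vector. Cells of each line, grown in low-pH medium with 10% serum, were given DMSO (vehicle) or 100 nM capmatinib, an inhibitor of the MET receptor kinase, for 24 h, with 2 libraries in each of the 4 groups. There is 1 line for each genotype, and the targeting of Trp53 cannot be told apart from anything else that separates them. The study's methods describe an empty-vector control of NF1-MET. The count columns of the NF1-MET libraries begin with SEV, and the labels do not say whether EV stands for empty vector. The labels call the libraries biological replicates, and per the study's methods they came from wells treated in duplicate, so the p-values measure the spread between such wells, which may be technical.

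Secreted and membrane proteins enter the ER through the Sec61 channel, are folded there by chaperones of the BiP system, by lectin chaperones and by disulfide isomerases, and leave in vesicles coated with COPII. Escaped chaperones carry a KDEL-like tail and are fetched back by KDEL receptors. When unfolded protein accumulates, the sensors IRE1 (gene Ern1), ATF6 and PERK signal to the nucleus. IRE1 splices the messenger RNA of Xbp1, ATF6 is cut in the Golgi to release a transcription factor, and PERK slows translation and raises ATF4. Creb3l1 and Creb3l2 encode relatives of ATF6 that are cut in the same way and are known for driving secretory genes in cells that make much collagen. The counts are per gene, so spliced and unspliced Xbp1 were not separated, and neither cleavage nor phosphorylation was measured.

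ATF6 and XBP1 act on short promoter elements, and stretches that hold such elements are shown for some of the 39 genes. Whether the elements bear on the values with capmatinib was not tested. The 3 elements were searched on both strands: the ER stress element (ERSE), which is CCAAT followed after 9 bases by CCACG, the shorter ERSE-II, which is ATTGG followed after 1 base by CCACG, and the UPR element (UPRE), TGACGTGG. The RefSeq table for GRCm38.p6 held promoters, each running from 250 bases before to 50 bases after a start, for 32 of the 39 genes. Lower-case letters give the gene's strand from 5′ to 3′, and capitals mark the fixed bases of the element, which reads CGTGG and ATTGG, or CCACGTCA, where it lies on the opposite strand.
Hspa5, ERSE: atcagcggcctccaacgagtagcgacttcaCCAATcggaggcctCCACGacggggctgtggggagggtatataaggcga
Hsp90b1, ERSE nearer the start: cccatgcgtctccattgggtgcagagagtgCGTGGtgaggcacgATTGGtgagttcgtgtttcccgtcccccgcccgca
Calr, ERSE: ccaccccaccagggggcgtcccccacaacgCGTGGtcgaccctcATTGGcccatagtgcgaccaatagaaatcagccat
Creld2, ERSE: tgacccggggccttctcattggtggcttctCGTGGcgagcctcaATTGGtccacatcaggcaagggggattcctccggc
Dnajc3, ERSE: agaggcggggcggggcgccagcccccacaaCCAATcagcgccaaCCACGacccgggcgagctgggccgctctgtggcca
Herpud1, ERSE-II: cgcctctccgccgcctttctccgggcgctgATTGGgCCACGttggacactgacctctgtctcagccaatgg
Kdelr3, UPRE: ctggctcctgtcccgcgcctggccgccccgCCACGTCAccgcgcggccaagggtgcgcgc
Sec24d, UPRE: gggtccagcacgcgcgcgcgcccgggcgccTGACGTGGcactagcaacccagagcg

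The printed stretches lie at chr2:34771995-34772073 (plus strand) for Hspa5, chr10:86705503-86705581 (minus) for Hsp90b1, chr8:84847045-84847123 (minus) for Calr, chr15:88819490-88819568 (plus) for Creld2, chr14:118937797-118937875 (plus) for Dnajc3, chr8:94386347-94386417 (plus) for Herpud1, chr15:79516348-79516407 (plus) for Kdelr3 and chr3:123267440-123267495 (plus) for Sec24d, all upstream of the RefSeq start. An exact ERSE was found in 7 of the 32 genes (Calr, Canx, Creld2, Dnajc3, Hsp90b1, Hspa5 and Pdia6), and Hsp90b1 held 2 copies. Over the whole table, 37 of 27025 genes held it (0.137%). ERSE-II was found in Dnajb11 and Herpud1, against 12 genes in the table (0.044%), and UPRE in Kdelr3, Sec23a and Sec24d, against 193 genes (0.714%). In Dnajb11 and Sec23a the element began 7 and 6 bases after the start. A matching stretch is a description of the letters and not a measured binding site, and the 300 bases searched may miss elements elsewhere.

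Library totals lay between 30.1 M and 42.8 M counts. A single transcript, Gm42418, which overlaps ribosomal RNA, took 1.11% to 13.1% of the counts of a library, so library sizes were scaled by TMM factors (0.898 to 1.10), and levels are given as CPM, counts scaled to the TMM-adjusted library size. In vehicle, Trp53 stood at 182 and 193 CPM in NF1-MET against 97.5 and 100.1 CPM in NF1-MET;sgP53, a log2 fold change of -0.94 (SE 0.0327, adjusted p = 2.48e-14, edgeR), which is a check of transcript and not of protein. The Schwann cell markers Sox10, S100b, Ngfr, Erbb3 and Fabp7 were each under 1 CPM in every library, while Nes stood at 427 to 473 CPM and Twist1 at 41.1 to 46.2 CPM. Of 10 markers of leukocytes, endothelium, epithelium and red cells, Cd68 was the highest, with 0.759 to 1.93 CPM. In libraries made from whole cultures, fewer cells of a kind and less RNA per cell cannot be told apart.

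Together the 39 genes took 1.49% to 1.81% of all counts. Per kilobase of exon, in NF1-MET with vehicle, the highest levels were those of Serpinh1 (487 CPM per kb), Calr (475), Hsp90b1 (412), P4hb (379), Hspa5 (351) and Pdia3 (328), all of them abundant ER-resident proteins, and the lowest were those of Fkbp14 (3.61), Ern1 (6.44) and Creb3l1 (12.8). In total 10 genes stood at 100 CPM per kb or more. The chaperones spanned the range, and Dnajb9 (13.3) and Sdf2l1 (18.3) lay near its foot with Ern1, Creb3l1, Atf6 (16.3) and Creb3l2 (16.5). Whether counting used the strand is not stated, which matters where these genes share exons with others. Ppib shared 24.96% of its exonic bases with Snx22 on the other strand, Hsp90b1 shared 15.7% with 3 other genes, and the other overlaps were at most 9.25%.

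The first comparison asks what inhibiting MET did to these genes in cells with intact Trp53. With capmatinib, the genes for collagen folding, for COPII export and for KDEL retrieval rose in NF1-MET without exception, while the 10 ER chaperones were split between rises and falls of at most 0.24. Creb3l1 had the highest log2 fold change (2.05) and Ern1 the lowest (-0.55). In all, 24 of the 39 genes rose and 8 fell (edgeR's quasi-likelihood test, adjusted p under 0.05), where 70.2% of all 14496 genes tested were called, 35.5% of them as higher and 34.7% as lower. So many genes responded that a call alone sets nothing apart, and the sizes are therefore given beside the spread of all genes. The median log2 fold change of the 39 was 0.21 against 0.002 over all genes, 3 rose at least 2-fold (Creb3l1, Fkbp14 and Kdelr3), as did 11.5% of all genes, 15 lay above the upper quartile of all genes (0.46) and 2 below the lower quartile (-0.37), and the vehicle and capmatinib libraries did not overlap for 35 of 39, as for 83.5% of all genes. With plain library totals in place of TMM scaling, the median of all genes was -0.18 and the split was 17 higher and 15 lower, and without Gm42418 in those totals 21 and 15.

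**Figure D1:**
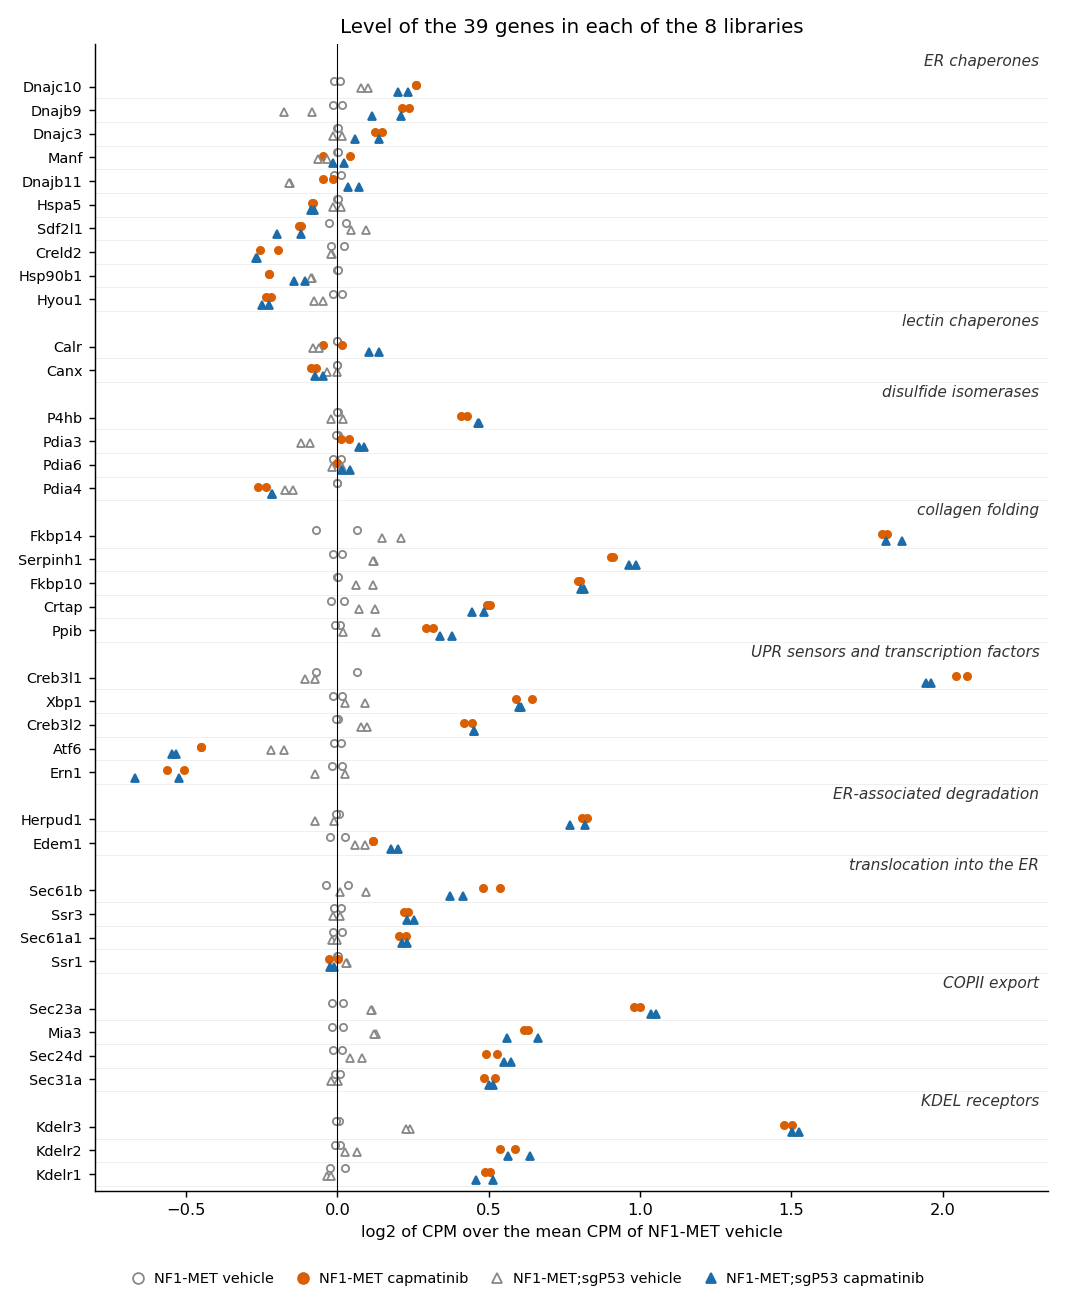
Level of each of the 39 genes in each of the 8 libraries, as the log2 of its CPM over the mean CPM of NF1-MET with vehicle. Genes are grouped by role, circles stand for NF1-MET and triangles for NF1-MET;sgP53, and open symbols stand for vehicle and filled ones for capmatinib. Collagen-folding, COPII and KDEL receptor genes lie to the right with capmatinib in both lines, Creb3l1 farthest, and most chaperones stay near 0.

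The 5 collagen-folding genes all rose, with a median log2 fold change of 0.78. Serpinh1 encodes HSP47, the collagen-specific chaperone, and stood at 1177 and 1203 CPM with vehicle and at 2229 and 2236 CPM with capmatinib, which is a log2 fold change of 0.89 (SE 0.0175, adjusted p = 4.65e-29). Both capmatinib libraries lay far above both vehicle libraries, and Serpinh1 alone accounted for most of the rise in the summed level of this group, from 1712 and 1732 CPM to 3051 and 3053 CPM. The prolyl isomerase Fkbp14 rose further, from 15.7 and 14.3 CPM to 52.8 and 52.2 CPM, a log2 fold change of 1.79 (SE 0.0545, adjusted p = 8.04e-24). Its relative Fkbp10, which acts on collagen and elastin precursors, went from 225 and 225 CPM to 391 and 392 CPM (0.78, adjusted p = 4.95e-24). Crtap, part of the complex that hydroxylates collagen prolines, rose by 0.48 and the prolyl isomerase Ppib by 0.29, with its exons partly shared as given above. With library totals Ppib read 0.10 and was no longer called. P4hb, a disulfide isomerase that is also the beta subunit of the collagen prolyl hydroxylase, moved with this group rather than with the other isomerases. It stood at 1086 and 1084 CPM with vehicle and at 1462 and 1440.1 CPM with capmatinib (log2 fold change 0.40, SE 0.0183, adjusted p = 4e-19).

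The 4 COPII genes rose with a median of 0.55. Sec23a, an inner coat subunit, went from 127 and 124 CPM to 251 and 248 CPM, a log2 fold change of 0.97 (SE 0.0268, adjusted p = 5.15e-25). Mia3 encodes TANGO1, the receptor that loads large cargo such as procollagen, and went from 97.2 and 94.7 CPM to 149 and 147 CPM (0.61, adjusted p = 1.69e-18). The cargo-binding subunit Sec24d and the outer coat subunit Sec31a both rose by 0.49. No vehicle library overlapped a capmatinib library for any of the 4. On the return route, the 3 KDEL receptors rose as well. Kdelr3 stood at 40.9 and 40.6 CPM with vehicle and at 115 and 113 CPM with capmatinib, a log2 fold change of 1.47 (SE 0.0347, adjusted p = 7.42e-27). Kdelr1 and Kdelr2 rose by 0.48 and 0.55.

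The 5 sensors and transcription factors all changed, in both directions. Creb3l1 (ENSMUSG00000027230, chr2:91982328-92024502) stood at 35.0 and 31.8 CPM with vehicle and at 141 and 138 CPM with capmatinib, a log2 fold change of 2.05 (SE 0.0374, adjusted p = 6.22e-30), the largest rise among the 39. Its paralog Creb3l2 went from 121 and 120.0 CPM to 164 and 161 CPM (0.42, adjusted p = 1.57e-14). Xbp1 went from 107 and 109 CPM to 169 and 163 CPM (0.60, SE 0.0295, adjusted p = 3.44e-18). The genes for 2 of the UPR sensors went the other way. Ern1, which encodes IRE1, fell from 53.3 and 52.0 CPM to 37.1 and 35.6 CPM (log2 fold change -0.55, SE 0.044, adjusted p = 7.35e-13), and Atf6 fell from 151 and 149 CPM to 110.1 and 109.9 CPM (-0.47, SE 0.0286, adjusted p = 1.02e-15). The transcripts of these 2 sensors were thus lower, and the transcript of the factor that IRE1 splices higher, in both capmatinib libraries.

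The 10 chaperones and co-chaperones were split, with 3 higher, 4 lower and 3 not called, and a median of -0.07. Hspa5, which encodes BiP, the main chaperone of the ER and the textbook readout of the UPR, stood at 1483 and 1485 CPM with vehicle and at 1404 and 1399 CPM with capmatinib. That is a log2 fold change of -0.10 (SE 0.0175, adjusted p = 8.07e-06). The fall was small and the groups did not overlap. Hsp90b1 (GRP94) fell by 0.24, from 1660.3 and 1665 CPM to 1422 and 1422 CPM (adjusted p = 4.87e-14). Hyou1, which recharges BiP with nucleotide, fell by as much, from 349 and 357 CPM to 303 and 299.9 CPM (-0.24, SE 0.0235, adjusted p = 6.86e-11), and Creld2, an ER protein induced by stress, also fell by 0.24, from 62.1 and 64.0 CPM to 52.8 and 55.0 CPM. Of the J-domain partners of BiP, Dnajc10 had the largest rise, from 251 and 254 CPM to 302 and 303 CPM (0.24, SE 0.0236, adjusted p = 7.39e-11), Dnajb9 rose by 0.21 and Dnajc3 by 0.12. Dnajb11 (-0.05), Manf (-0.02) and Sdf2l1 (-0.14, adjusted p = 0.0504) were not called. Sdf2l1 was called lower in 5 of 13 alternative settings, and Dnajb11 and Manf in 2 each. The rises of Dnajc10, Dnajb9 and Dnajc3 depend on the scaling: with library totals they read 0.06, 0.02 and -0.07, and none was called.

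Among the lectin chaperones, which hold glycoproteins until they are folded, Canx fell from 900.3 and 900.3 CPM to 857 and 847 CPM (-0.10, SE 0.0196, adjusted p = 6.27e-05) and Calr, with 1369 and 1369 CPM before and 1385 and 1326 CPM after, was not called (-0.03, adjusted p = 0.158). Of the isomerases besides P4hb, Pdia4 fell from 326 and 326 CPM to 276 and 272 CPM (-0.27, SE 0.0235, adjusted p = 8.72e-12). Pdia3, the partner of the lectin chaperones (0.01), and Pdia6 (-0.02) were not called. For these abundant enzymes the change was therefore small or downward, apart from P4hb.

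Both genes of ER-associated degradation rose. Herpud1, which organizes the degradation complex in the ER membrane, went from 48.6 and 48.2 CPM to 84.7 and 85.7 CPM, a log2 fold change of 0.80 (SE 0.0359, adjusted p = 2.91e-19). Edem1, a lectin that picks glycoproteins for degradation, rose by 0.10 and read -0.08 with library totals, so its direction rests on the scaling. In translocation, Sec61b, the small beta subunit of the channel, went from 65.2 and 62.0 CPM to 92.2 and 88.8 CPM (0.49, SE 0.0352, adjusted p = 5.64e-14). The pore subunit Sec61a1 rose by 0.20 and Ssr3, a subunit of the associated TRAP complex, by 0.21, while Ssr1 of the same complex was not called (-0.03). With library totals Sec61a1 read 0.01 and Ssr3 0.03, and neither was called.

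The second comparison asks the same of the line targeted at Trp53, whose transcript was lower but still present. In NF1-MET;sgP53, capmatinib raised 27 of the 39 genes and lowered 6, where 67.6% of all genes were called, 34.2% as higher and 33.4% as lower. The same 3 rose at least 2-fold, as did 10.4% of all genes. The median was 0.25 against 0.005 over all genes, 14 genes lay above the upper quartile of all genes (0.45) and 1 below the lower (-0.36), and the groups did not overlap for any of the 39, as for 82.5% of all genes. With library totals the split was 16 and 5, where the median of all genes was -0.12, and without Gm42418 in those totals it was 24 and 11. These 4 libraries are not those of the first comparison. Of the genes called in both lines, 29 moved in the same direction and 0 in opposite directions. Across the 39 genes the log2 fold changes of the lines correlated with Pearson's r = 0.985, and across all 14496 genes with r = 0.898. This describes genes within the same 8 libraries, and genes are not replicates.

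**Figure D2:**
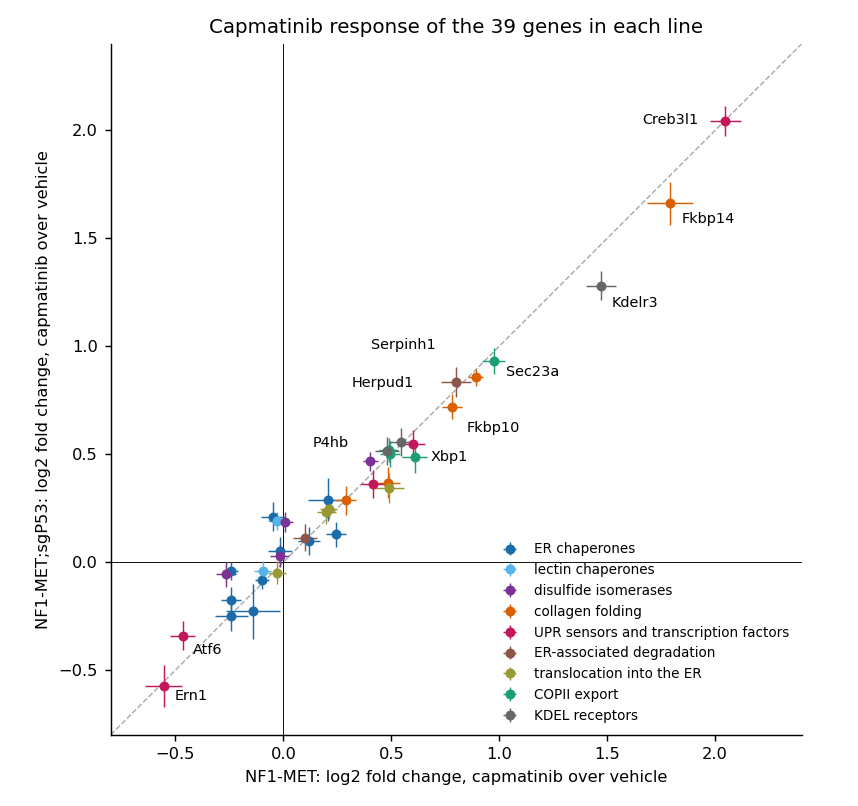
Log2 fold change with capmatinib of each of the 39 genes for NF1-MET (horizontal axis) against NF1-MET;sgP53 (vertical axis), with bars for approximate 95% intervals in both directions and colours for roles. The dashed line marks equal responses. Most genes lie on it, Creb3l1 at 2.05 and 2.04, and a few chaperones and isomerases lie above it near 0.

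Creb3l1 and Ern1 again had the highest and the lowest values. Creb3l1 went from 31.7 and 31.0 CPM to 129 and 130.1 CPM (log2 fold change 2.04, SE 0.0358, adjusted p = 4.02e-22) and Ern1 from 50.01 and 53.6 CPM to 36.6 and 33.1 CPM (-0.57, SE 0.0496, adjusted p = 8.28e-10). Fkbp14 went from 17.4 and 16.6 CPM to 54.7 and 52.7 CPM (1.66, adjusted p = 9.15e-18). With capmatinib, Creb3l1 was lower in this line than in NF1-MET, as given below, and Ern1 and Fkbp14 were not called between the lines. Sec23a went from 136 and 136 CPM to 260.1 and 258 CPM (0.93), Kdelr3 from 48.1 and 47.7 CPM to 115 and 117 CPM (1.28), and Herpud1 from 45.9 and 48.0 CPM to 82.4 and 85.3 CPM (0.83). Serpinh1 went from 1295 and 1291 CPM to 2319.6 and 2358 CPM (0.86) and P4hb from 1099 and 1070.1 CPM to 1499 and 1497 CPM (0.47). The adjusted p-values of these 5 rises were at most 1.99e-14. Sec61b rose from 67.9 and 63.9 CPM to 84.7 and 82.3 CPM (0.34, adjusted p = 1.88e-08).

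Within the chaperones the largest rise was that of Dnajb9, from 29.9 and 31.9 CPM to 39.1 and 36.6 CPM (0.29, SE 0.0516, adjusted p = 3.55e-05), and the largest fall that of Creld2, from 62.2 and 62.2 CPM to 52.3 and 52.4 CPM (-0.25, SE 0.0361, adjusted p = 2.42e-06). Hspa5 fell by 0.08, Hyou1 by 0.17 and Sdf2l1 by 0.23. Dnajb11, Dnajc3 and Dnajc10 rose by 0.21, 0.10 and 0.13, and Hsp90b1 and Manf were not called (-0.04 and 0.05). Calr rose from 1294 and 1313 CPM to 1506 and 1471 CPM (0.19, SE 0.0215, adjusted p = 5.56e-08) and Pdia3 by 0.18, while Canx (-0.04), Pdia4 (-0.06) and Pdia6 (0.03) were not called. The remaining genes kept to the pattern of NF1-MET, with rises in Fkbp10 (0.72), Crtap (0.37), Ppib (0.29), Xbp1 (0.55), Creb3l2 (0.36), Edem1 (0.11), Sec61a1 (0.23), Ssr3 (0.25), Sec24d (0.50), Sec31a (0.52), Mia3 (0.49), Kdelr1 (0.51) and Kdelr2 (0.56), a fall in Atf6 (-0.34), and Ssr1 not called (-0.05). With library totals the rises of Dnajb9, Dnajb11, Dnajc3, Dnajc10, Calr, Pdia3, Ppib, Edem1, Sec61a1, Sec61b and Ssr3 and the fall of Hspa5 were no longer called. That of Dnajc3 was also lost without NF1-MET;sgP53 vehicle replicate 2 (0.08) or capmatinib replicate 1 (0.06).

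**Figure D3:**
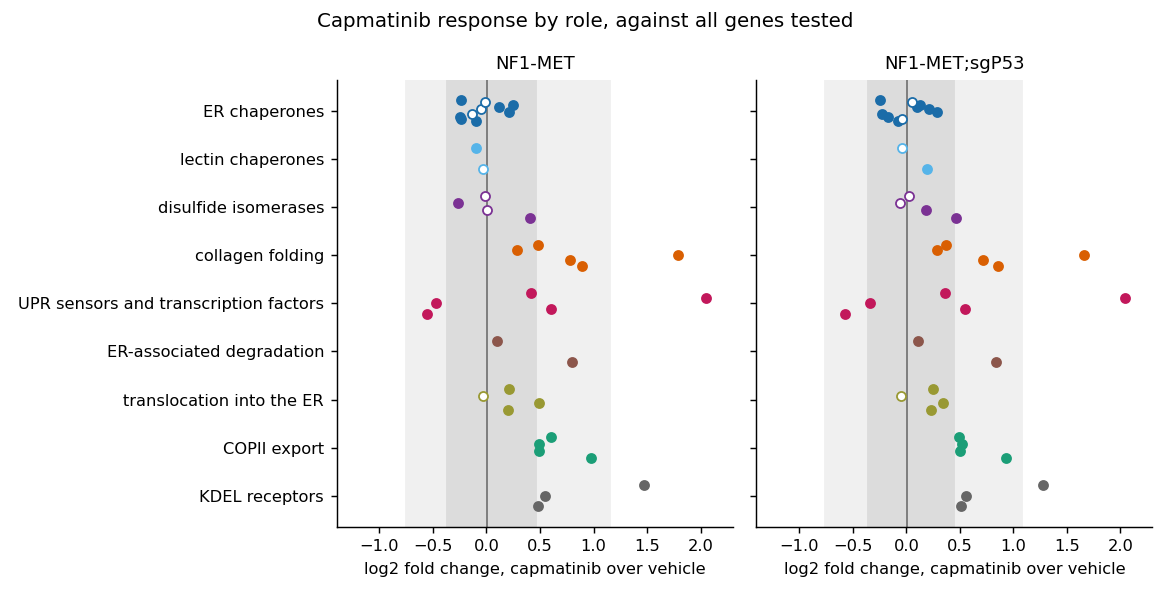
Log2 fold change with capmatinib in each line, by role. Each circle is a gene, filled where it was called. The dark band spans the quartiles of all genes tested (-0.37 to 0.46 in NF1-MET), the light band their 10th to 90th percentiles, and the grey line their median. Chaperones and isomerases lie within the dark band apart from P4hb in NF1-MET;sgP53, whereas most collagen-folding, COPII and KDEL receptor genes lie beyond it.

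Read by promoter element, the 7 genes with an exact ERSE had log2 fold changes of -0.24 to 0.12 in NF1-MET, with 1 higher and 4 lower, and of -0.25 to 0.19 in NF1-MET;sgP53, with 2 higher and 2 lower. These are the promoters shown above for Hspa5, Hsp90b1, Calr, Creld2 and Dnajc3, with Canx and Pdia6. The 3 genes with a UPRE, Kdelr3, Sec23a and Sec24d, had values of 0.49 to 1.47 and of 0.50 to 1.28. All 3 are COPII or KDEL receptor genes. Of these groups, Sec31a, Mia3 and Kdelr1, with no element found, rose by 0.49, 0.61 and 0.48 in NF1-MET. The ERSE genes are chaperones, lectins and an isomerase, so element and role cannot be told apart here. Herpud1, whose ERSE-II is printed above, rose in both lines, and Dnajb11 only in NF1-MET;sgP53. Of the 20 genes with none of the 3 elements, 15 rose and 2 fell in NF1-MET, from -0.55 (Ern1) to 1.79 (Fkbp14) with a median of 0.35, and 16 rose and 2 fell in NF1-MET;sgP53, so rises were common without a match. With 1 mismatch allowed in the last 5 bases, 10 of the 32 genes held an ERSE, the added ones being Pdia3 and Pdia4, counted here without an element, and Herpud1, which rose by 0.80 and 0.83, so the narrow range holds for exact matches only. For 7 genes, Creb3l1 and Atf6 among them, no promoter was searched. Outside the 39, 4 of 10 tested genes with an ERSE rose and 3 fell in NF1-MET, and of 103 with a UPRE 55 rose (53.4%) and 24 fell (23.3%), beside 35.5% and 34.7% of all genes. These are descriptions of small sets, with no test.

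**Figure D4:**
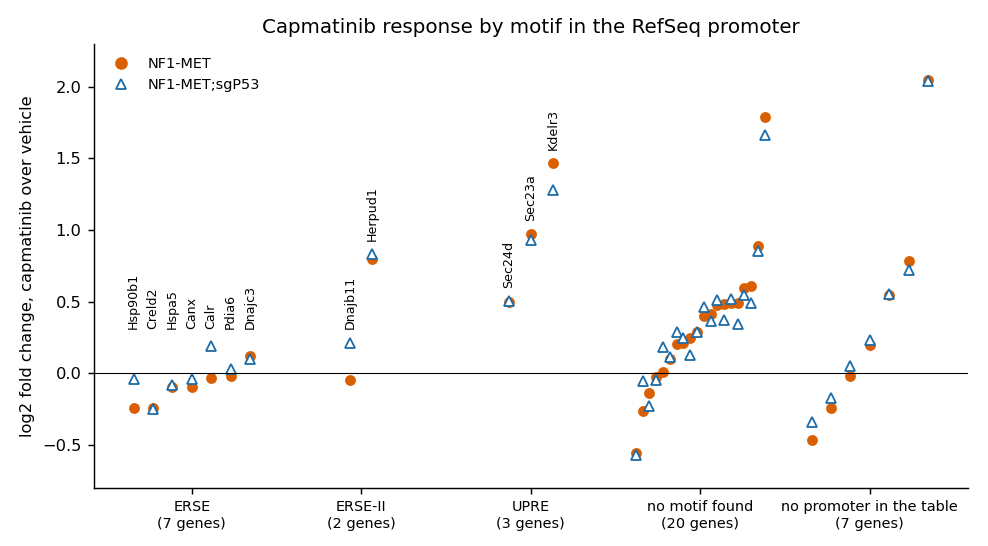
Log2 fold change with capmatinib of the 39 genes by the element found in the RefSeq promoter, with filled circles for NF1-MET and open triangles for NF1-MET;sgP53. Genes with an exact ERSE lie between -0.25 and 0.19, and the 3 with a UPRE between 0.49 and 1.47.

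The third comparison asks how the lines differed without the drug. In vehicle, 4 of the 39 genes were higher and 8 lower in NF1-MET;sgP53 than in NF1-MET, where 23.2% of all genes were called, 10.9% as higher and 12.3% as lower. The differences were small, from -0.22 to 0.21, with 0 genes higher at least 2-fold against 1.4% of all genes, and the 8 lower genes were Atf6 and 7 chaperones, lectins and isomerases. Atf6 had the largest fall, from 151 and 149 CPM in NF1-MET to 133 and 129 CPM (-0.22, SE 0.0294, adjusted p = 1.08e-05). Pdia4 went from 326 and 326 CPM to 294 and 289 CPM (-0.18, adjusted p = 1.77e-05), Dnajb11 from 137 and 139 CPM to 124 and 124 CPM (-0.18, adjusted p = 0.000121) and Dnajb9 from 34.2 and 33.4 CPM to 29.9 and 31.9 CPM (-0.15, adjusted p = 0.0441). Pdia3 went from 1031 and 1026 CPM to 966 and 946 CPM (-0.12, adjusted p = 0.000118). Hsp90b1 fell by 0.10 (adjusted p = 0.000199), Calr by 0.09 (adjusted p = 0.00152) and Hyou1 by 0.08 (adjusted p = 0.0252). For each of the 8, both NF1-MET;sgP53 libraries lay below both NF1-MET libraries. The groups did not overlap for 28 of the 39 genes and for 60.5% of all genes. BiP itself did not pass (Hspa5, -0.02, adjusted p = 0.487).

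The 4 higher genes were a KDEL receptor, a collagen chaperone and a pair of COPII genes, a share close to that of all genes. Kdelr3 went from 40.9 and 40.6 CPM in NF1-MET to 48.1 and 47.7 CPM in NF1-MET;sgP53 (0.21, SE 0.0408, adjusted p = 0.000545), Serpinh1 from 1177 and 1203 CPM to 1295 and 1291 CPM (0.10, adjusted p = 0.000757), Mia3 from 97.2 and 94.7 CPM to 105 and 104 CPM (0.11, adjusted p = 0.0181) and Sec23a from 127 and 124 CPM to 136 and 136 CPM (0.09, adjusted p = 0.0248). Differences of this size depend on the scaling. With library totals 1 gene was higher (Kdelr3) and 0 lower, without Gm42418 in those totals 8 and 6, and with all 8 libraries in 1 model 9 and 6. DESeq2 called 2 higher and 7 lower. Leaving out any of the 4 libraries ended the call of Sec23a. The calls of Dnajb9 and Hyou1 held only without NF1-MET;sgP53 vehicle replicate 2, and that of Mia3 was lost without NF1-MET vehicle replicate 2.

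The same question under the drug gave 3 of the 39 genes as higher and 2 as lower in NF1-MET;sgP53, where 12.3% of all genes were called, 5.94% as higher and 6.34% as lower. Calr went from 1385 and 1326 CPM to 1506 and 1471 CPM (0.14, SE 0.0217, adjusted p = 0.000293), Hsp90b1 from 1422 and 1422 CPM to 1545 and 1504 CPM (0.10, adjusted p = 0.00115) and Serpinh1 from 2229 and 2236 CPM to 2319.6 and 2358 CPM (0.07, adjusted p = 0.00591). Creb3l1 went from 141 and 138 CPM to 129 and 130.1 CPM (-0.11, SE 0.0319, adjusted p = 0.032) and Sec61b from 92.2 and 88.8 CPM to 84.7 and 82.3 CPM (-0.11, adjusted p = 0.0239). The groups did not overlap for 21 of the 39 genes and for 52.3% of all genes. With library totals 0 of the 39 were called, with the median of all genes at 0.11. DESeq2 called 3 higher and 0 lower. Without NF1-MET capmatinib replicate 1 the 2 lower genes were no longer called, and without NF1-MET capmatinib replicate 2 or NF1-MET;sgP53 capmatinib replicate 2 only 1 was called as lower. Serpinh1 was not called without NF1-MET;sgP53 capmatinib replicate 2.

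**Figure D5:**
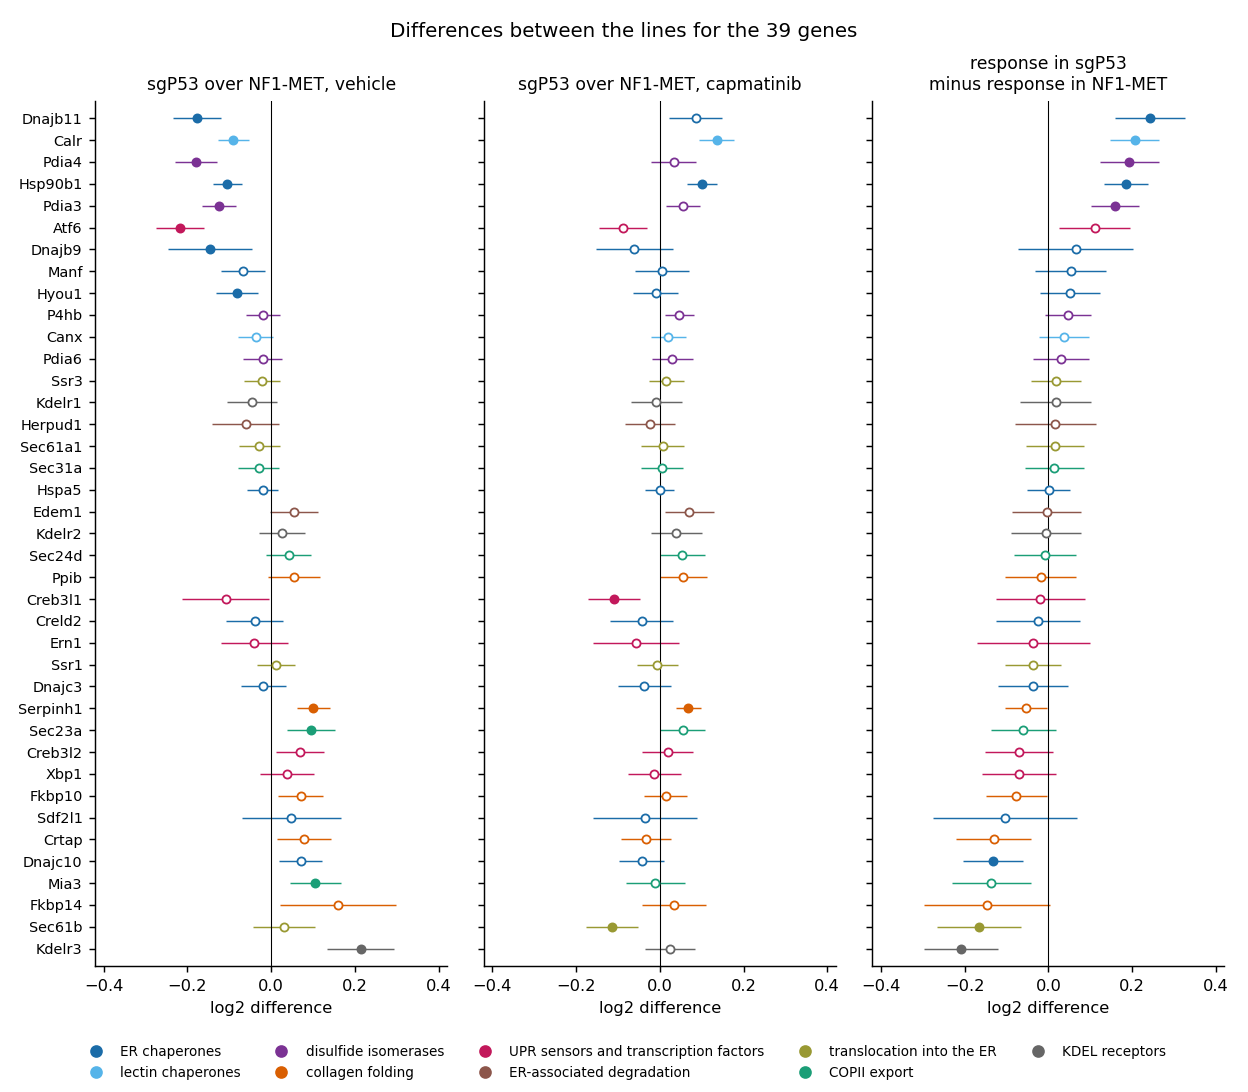
Log2 differences between the lines for the 39 genes, in vehicle, in capmatinib, and as the difference of the capmatinib responses (NF1-MET;sgP53 minus NF1-MET). Bars are approximate 95% intervals, filled circles are called genes and colours mark roles. Dnajb11, Calr, Pdia4, Hsp90b1 and Pdia3 lie to the right in the last panel (0.16 to 0.24), and Kdelr3, Sec61b and Dnajc10 to the left (-0.21 to -0.13).

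The last comparison tests the difference of the responses itself, over all 8 libraries. The response of 5 of the 39 genes was higher in NF1-MET;sgP53 and that of 3 lower, where 9.71% of all genes were called, 3.85% as higher and 5.86% as lower. The 5 are chaperones, lectins and isomerases of the ER lumen: Dnajb11 (difference of the log2 fold changes 0.24, SE 0.0427, adjusted p = 0.000342), Calr (0.21, SE 0.0302, adjusted p = 3.78e-05), Pdia4 (0.19, adjusted p = 0.000633), Hsp90b1 (0.19, adjusted p = 2.69e-05) and Pdia3 (0.16, adjusted p = 0.000635). All 5 were also among the 8 that were lower in NF1-MET;sgP53 with vehicle, a comparison that uses the same vehicle libraries. Side by side, their log2 fold changes with capmatinib were -0.05 and 0.21 for Dnajb11, -0.03 and 0.19 for Calr, -0.27 and -0.06 for Pdia4, -0.24 and -0.04 for Hsp90b1, and 0.01 and 0.18 for Pdia3, with NF1-MET first. With TMM factors, Dnajb11, Calr and Pdia3 rose in NF1-MET;sgP53 without a called change in NF1-MET, and Pdia4 and Hsp90b1 fell in NF1-MET without a called change in NF1-MET;sgP53. Which of the lines shows the change depends on the scaling. With library totals Dnajb11 (-0.23), Calr (-0.22) and Pdia3 (-0.18) were called lower in NF1-MET, and their rises in NF1-MET;sgP53 (0.09, 0.07 and 0.06) were not called. With Gm42418 left out of the totals, or with no filter, Pdia4 and Hsp90b1 were called lower in NF1-MET;sgP53 too. Without NF1-MET capmatinib replicate 1, Calr was called lower in NF1-MET (-0.06, adjusted p = 0.00417). Each of the 5 was called in 15 of 16 alternative settings, the exception being library totals, under which 0 of the 39 were called.

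The 3 genes with a lower response in NF1-MET;sgP53 were Kdelr3 (-0.21, SE 0.0455, adjusted p = 0.00327), Sec61b (-0.16, SE 0.0512, adjusted p = 0.0417) and Dnajc10 (-0.13, SE 0.0365, adjusted p = 0.0195). All 3 rose in both lines, by less in NF1-MET;sgP53. Kdelr3 was called in 14 of the 16 settings, Dnajc10 in 7 and Sec61b in 6, and DESeq2 called none of the 3. With 1 of the 8 libraries left out, the call of Kdelr3 held each time, that of Dnajc10 only without NF1-MET or NF1-MET;sgP53 vehicle replicate 2, and that of Sec61b only without NF1-MET vehicle replicate 1, NF1-MET capmatinib replicate 2 or NF1-MET;sgP53 vehicle replicate 2. For the gene with the largest rise, Creb3l1, the difference was -0.02 with an approximate 95% interval of -0.126 to 0.0870, for Fkbp14 it was -0.15 (-0.296 to 0.00431) and for Xbp1 -0.07 (-0.159 to 0.0185), so differences of these sizes were not detected here and differences within the intervals remain possible.

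A list of 104 further genes of the same pathway, drawn up by function, was read in the same way. Of the 101 past the filter, 69 rose and 15 fell with capmatinib in NF1-MET, with a median of 0.25, beside 35.5% and 34.7% of all genes. In the other line 70 rose and 13 fell, beside 34.2% and 33.4%. All 11 genes of the COPI coat, which carries the KDEL receptors and their cargo back, rose in NF1-MET and 10 of 11 in NF1-MET;sgP53. In NF1-MET, of 12 other genes of ER-associated degradation 11 rose and 0 fell, of 23 other folding genes 16 rose and 5 fell, of 20 other genes of COPII export and cargo receptors 10 rose and 4 fell, of 20 other translocation genes 11 rose and 3 fell, and of 7 other ER stress factors 3 rose and 2 fell. Of the genes with at least 10 CPM in the higher group, the 5 largest rises were those of Trib3, Atf3, Copz2, Ddit3 and Sec16b and the 5 largest falls those of Mogs, Sec24b, Mbtps2, Sec11c and Fkbp2.

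Of the 8 genes of the PERK arm, 7 rose in each line (35.5% and 34.2% of all genes did), with a median of 1.24 for NF1-MET and 1.32 for NF1-MET;sgP53. Ddit3 encodes CHOP, a factor induced late in the UPR, and went from 9.53 and 10.6 CPM to 33.6 and 33.7 CPM in NF1-MET (log2 fold change 1.72, SE 0.0658, adjusted p = 3.96e-21) and from 9.14 and 10.5 CPM to 34.0 and 36.1 CPM in NF1-MET;sgP53 (1.83). Exons of Ddit3 are shared with 2 genes on the other strand over 10.9% of their bases. Trib3, a target of ATF4 and CHOP, rose by 2.52 and 2.24 in the lines, and Atf3, a stress-induced factor, by 2.36 and 1.899. The following were chosen after their values were seen. Atf4 went from 322 and 323 CPM to 476 and 477 CPM in NF1-MET (0.55), Ppp1r15a, which restores translation, rose by 1.04 and Chac1 by 1.44, whereas the kinase gene itself, Eif2ak3 (PERK), rose by 0.23 and Ppp1r15b fell by 0.08. In NF1-MET, Eif2ak3 was called in 11 of 13 alternative settings and Ppp1r15b in 12 of 13. ATF4 is also raised by stresses outside the ER, and these counts do not tell the sources apart.

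Among the falls, Mbtps2 encodes the site-2 protease that cuts ATF6 and the CREB3L factors, and fell by 0.35 and 0.33 in the lines. The glucosidase Mogs fell by 0.41 and 0.43, the coat subunit Sec24b by 0.40 and 0.34, against rises of its paralog Sec24d of 0.49 and 0.50, and the signal peptidase subunit Sec11c by 0.35 and 0.30. Fkbp2 fell by 0.29 in NF1-MET and was not called in NF1-MET;sgP53 (0.01). The COPI subunit gene Copz2 rose by 1.74 and 1.502 and Sec16b, a scaffold of the ER exit sites, by 1.59 and 1.21. Between the lines, vehicle showed 15 of the 101 higher and 8 lower (10.9% and 12.3% of all genes), capmatinib 7 and 0 (5.94% and 6.34%), and 3 were higher and 9 lower in the difference of the responses (3.85% and 5.86%). Among the 10 named, the difference of the responses was called for Trib3 (-0.29), Copz2 (-0.26), Sec16b (-0.39) and Fkbp2 (0.28), with adjusted p = 0.0464, 0.0448, 0.0262 and 0.0162. These calls were fragile: with each of the 8 libraries left out in turn, that of Trib3 held 0 times, of Copz2 2, of Sec16b 3 and of Fkbp2 5 times, and DESeq2 called none of the 4. In vehicle Trib3 and Sec16b differed by 0.46 and 0.48, in 13 of 13 alternative settings, while the difference of Fkbp2 (-0.17) was not called with any of the 4 libraries left out. In capmatinib Trib3 differed by 0.19 (11 of 13 settings). Exons of Mbtps2 are shared with other genes over 28.4% of their bases.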

How the data were processed

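Gene counts of 8 poly(A) RNA libraries were used as the authors deposited them, as raw counts per gene and not normalized. Per the labels and the submitters' processing notes, reads were demultiplexed with bcl2fastq 1.9.0, trimmed with Trim Galore 0.4.2, checked with FastQC 0.11.7 and aligned to mm10 with STAR 2.5.2b. The annotation release and the strand setting are not given in the sources used here. Of the identifiers, 50376 were found in GENCODE M21, whose coordinates are given.

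Genes needed at least 10 counts in at least 2 of 8 libraries, which removed 0.0396% of the counts. Each comparison was fitted with edgeR 4.0.16 (R 4.3.3, limma 3.58.1) by the quasi-likelihood F-test, with TMM factors from its own libraries, and the difference of responses over all 8. P-values were adjusted by Benjamini-Hochberg over all genes tested, with 0.05 as the threshold, and SE was computed from the fold change and F. Levels are CPM with TMM factors over all 8 libraries. Intervals are 1.96 SE. The scripts were tested on simulated data.

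The members and lists were chosen with earlier results of these data known. By rule, values in every library were given for the largest called rise and fall of each role in each comparison, for the 5 largest in each direction between the lines and, of the further pathway genes with at least 10 CPM, for the 5 largest rises and falls in NF1-MET. Alternatives were DESeq2 1.42.0 (its test, and its size factors in edgeR), edgeR's bias-adjusted form, other filters, library totals with and without Gm42418, all 8 libraries in 1 model, the replicate number as a block, dropping each library in turn, a mismatch in the ERSE and another gene length. Protein sequences were not used here.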

Additional observations from a re-analysis of the deposited data

Results flagged for a closer look

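For 8 of the 39 genes the response to capmatinib differed between the lines by a test of the difference itself (edgeR, adjusted p under 0.05), where 9.71% of all genes did. The log2 response in NF1-MET;sgP53 minus that in NF1-MET was 0.24 for Dnajb11, 0.21 for Calr, 0.19 for Pdia4, 0.19 for Hsp90b1 and 0.16 for Pdia3, and it was -0.21 for Kdelr3, -0.16 for Sec61b and -0.13 for Dnajc10. With each library left out in turn, the call of Dnajc10 held in 2 of 8 fits and that of Sec61b in 3 of 8, while the other 6 calls held in 8 of 8. What lies behind these differences was not tested.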

How the results depend on the processing

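Of the single-gene values under the alternatives, 1759 kept direction and side of the threshold, 148 lost and 24 gained a call and 25 changed sign, and of the counts 164 stayed within 1.5 times and 42 did not. The cause was not tested. With library totals, members in NF1-MET were 15 lower, in NF1-MET;sgP53 16 higher with 46 pathway genes called (83 otherwise), in vehicle 1 higher, 0 lower and 11 pathway genes, in capmatinib 0, 0 and 1, and for the difference of responses 0, 0 and 0. Without Gm42418 in the totals they were 15 lower, 11 lower, 8 higher, and 5 higher with 11 pathway genes. DESeq2 gave 2 higher with 9 pathway genes in vehicle, 0 lower with 3 in capmatinib and 0 lower with 5 for the difference. Without a filter, 10 were lower in NF1-MET;sgP53 and 1 for the difference, and all 8 libraries in 1 model gave 9 higher in vehicle. Leaving out each library gave 2 to 6 higher and 12 to 19 pathway genes in vehicle (2 without NF1-MET vehicle replicate 2), 0 to 2 lower and 5 to 12 pathway genes in capmatinib, and 1 to 4 lower and 4 to 9 pathway genes for the difference (1 lower without NF1-MET capmatinib replicate 1, NF1-MET;sgP53 vehicle replicate 1 or NF1-MET;sgP53 capmatinib replicate 2).

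Sign changes with library totals were, in NF1-MET, Dnajc3 -0.066, Pdia3 -0.18 and Edem1 -0.085, in NF1-MET;sgP53 Dnajc3 -0.026, Manf -0.0698, Pdia6 -0.093, Edem1 -0.0082 and Fkbp2 -0.12, between the lines in capmatinib Creb3l1 0.0068, and for the difference Xbp1 0.0081 and Creb3l1 0.058. Without Gm42418 they were Pdia3 -0.10 and Edem1 -0.0098 in NF1-MET, and for the other line Dnajc3 -0.024, Manf -0.0698, Pdia6 -0.093, Edem1 -0.0083 and Fkbp2 -0.11. Without a filter Fkbp2 read -0.0095 and the Creb3l1 difference 0.0058. With each library left out, values in NF1-MET ran from -0.064 to 0.025 for Manf, from -0.0057 to 0.023 for Pdia3 and from -0.0638 to 0.0013 for Calr, and the Creb3l1 difference from -0.087 to 0.049.

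Between groups, the deviations of same-numbered libraries from their group means (log2 CPM) correlated by -0.054 to 0.102. With 2 libraries in each group this does not settle whether the samples were paired. A replicate block gave 24 higher and 9 lower for NF1-MET, 27 and 6 for NF1-MET;sgP53, 6 and 9 in vehicle, 3 and 2 in capmatinib, and 5 and 4 for the difference.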
